A study of Glycine max with 4 samples.

Results

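In leaves of 2 soybean (Glycine max) lines, 70 of 54175 gene models separated the lines in every library, well watered or droughted. They were chosen by their FPKM values (sequenced fragments per unit length of a gene model, scaled by the mapped fragments of its library): after 0.25 FPKM was added to each value, the lowest of the 6 libraries of one line was at least 2 times the highest of the 6 libraries of the other. By this rule 44 gene models were higher in PI 567690 (0.0812% of all) and 26 were higher in Pana (0.0480%). The difference between the lines is therefore what defines these genes, and it is described here without a test. The files do not pair the identifiers with gene names, and 0 of the 54175 matched the name table used here, so the genes appear by identifier and no function is given for any of them.

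Pana, labelled drought susceptible, and PI 567690, labelled drought tolerant, were grown in pots of soil and sand. The 4 groups are Pana under control conditions, Pana under drought, PI 567690 under control conditions and PI 567690 under drought, with 3 libraries each (12 in all). Drought was imposed at the V5 stage for 15 days, and all groups are leaf tissue of the R2 stage. Each group is 1 sample in the repository with 3 columns of values, called biological replicates in the series' design text, and nothing says which plants they came from. Every p-value here is therefore a statement about the spread among columns, which may be technical in part. No identifier was annotated as a leaf marker, so the tissue label was not checked.

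Genes that differ between cultivars whatever the growing conditions are a known feature of crop species. Cultivars carry different alleles of promoters and coding sequences, and some genes are present in one cultivar and missing or truncated in another. RNA-seq reads are placed on one reference genome, so a low FPKM in a line can mean little transcript or reads that the aligner did not place, and these cannot be told apart here. Soybean is an ancient polyploid with many near-identical gene copies, between which reads can be split. In a whole leaf, fewer cells of a type and less RNA per cell also cannot be told apart.

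Some libraries stood apart, and the rule depends on every one of them. The depth, read from the size of 1 read in the low FPKM values, ran from 48.3% (PI 567690 drought library 1) to 100% (Pana drought library 3) of that of the deepest library. Pana control library 1 listed 15657 gene models at 0, against 9535 to 12093 in the other libraries. It also held the most zeros among the genes described here, with 26 of the 44 PI 567690-high genes at 0, against 10 to 15 in the other Pana libraries. Pana drought libraries 1 and 3 and PI 567690 drought library 1 took the level of the other line in some of the genes that all other libraries separated, as described further on. Leaving out Pana drought library 1 raised the number of separating genes from 70 to 134, leaving out Pana drought library 3 raised it to 103, and leaving out PI 567690 drought library 1 raised it to 99. PI 567690 drought libraries 2 and 3 were nearly 1 sample: over 8189 gene models their reads differed by 1.07 times sampling noise (median chi-square), against 1.80 times or more for every other pair of libraries of a group. By construction, the 70 genes are those in which all 12 libraries went with their label.

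**Figure D1:**
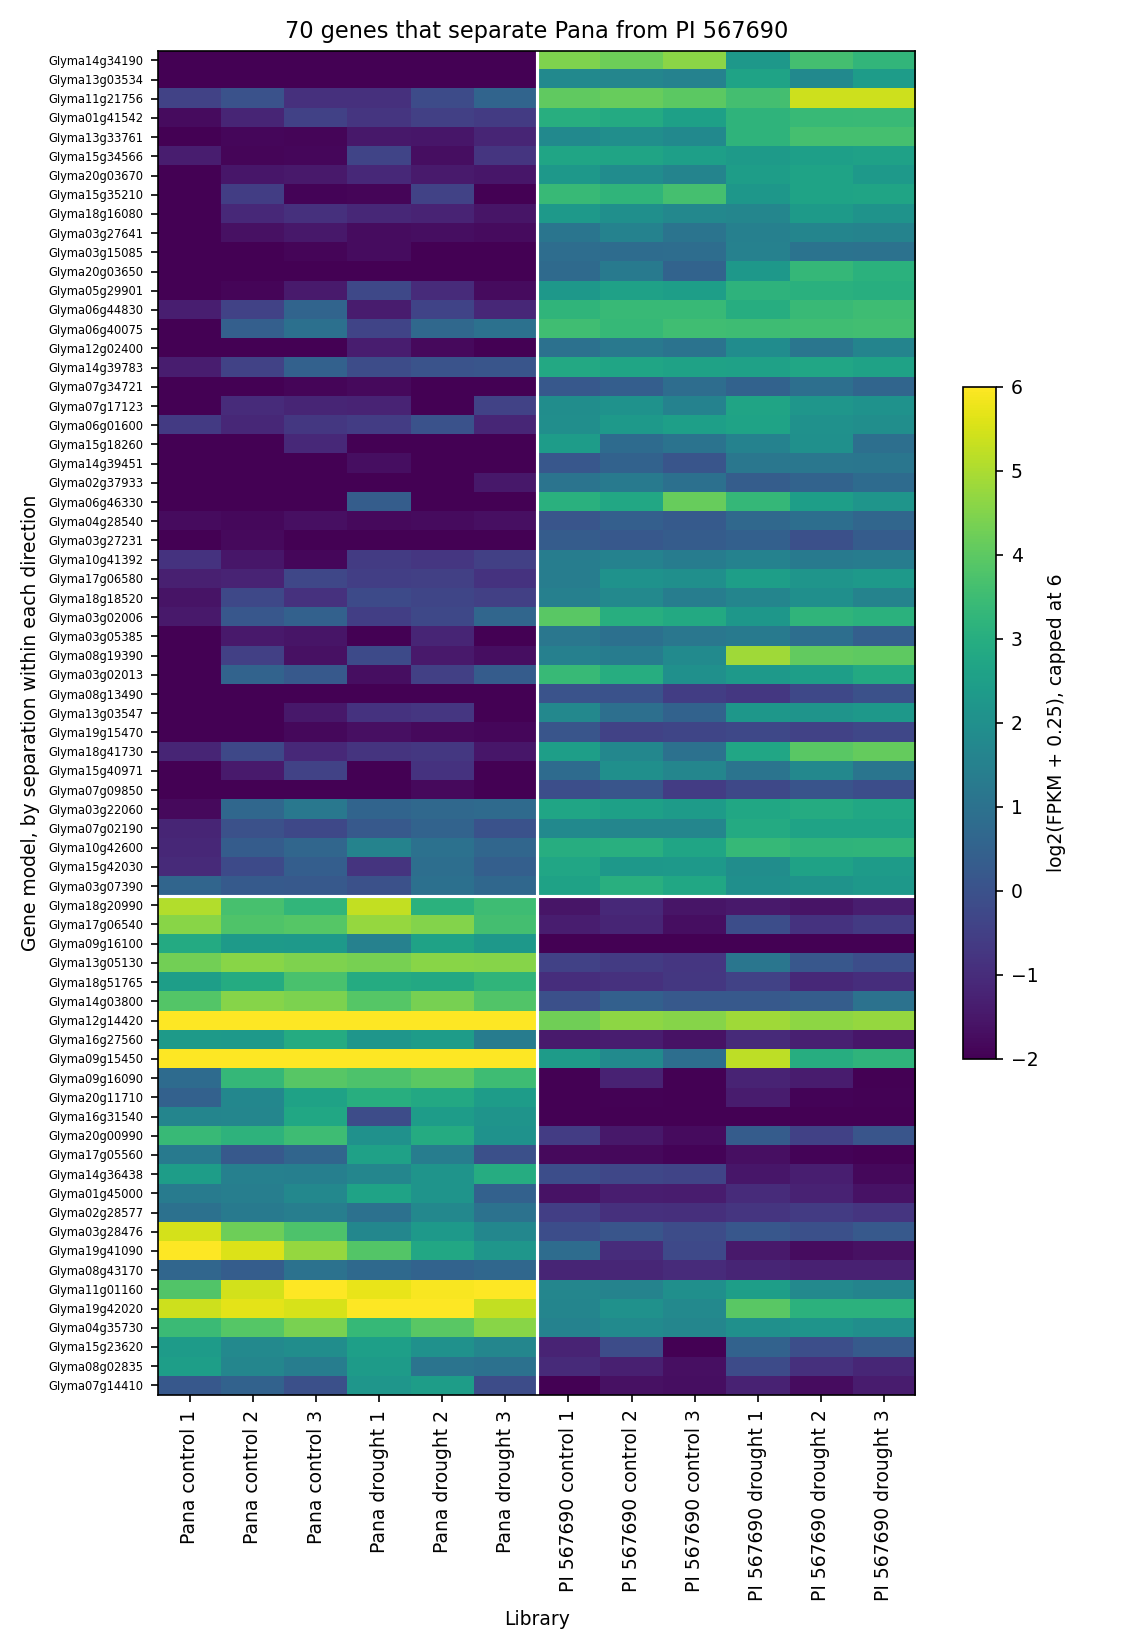
Level of the 70 separating genes (rows) in the 12 libraries (columns), as log2(FPKM + 0.25) with colours capped at 6; the white lines part the 44 genes higher in PI 567690 (top) from the 26 higher in Pana, and the lines of soybean. Most of the upper genes lie near the floor of the scale in all 6 Pana libraries, while 2 of the lower genes, Glyma12g14420 and Glyma09g15450, are at the cap throughout Pana.

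The 44 genes higher in PI 567690 were mostly of low or moderate level. Their mean over the 6 PI 567690 libraries ran from 0.588 to 24.1 FPKM with a median of 4.51 FPKM, against 5.91 FPKM for the tested genes in that line (those that reached 1 FPKM in 3 or more libraries). In 32 of the 44 no Pana library reached 1 FPKM, and 4 were listed at 0 in all 6 Pana libraries. The separation, the lowest PI 567690 value over the highest Pana value on FPKM + 0.25, was at least 4-fold in 17 genes and at least 8-fold in 4.

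Glyma14g34190 had the widest separation, 19.2-fold. It was listed at 0 in all 6 Pana libraries, and stood at 21.9, 18.4 and 24.1 FPKM in the PI 567690 controls and at 4.56, 12 and 9.37 FPKM in the PI 567690 drought libraries. These values rest on few reads. Whole reads could be recovered for it, and they numbered 15, 25 and 20 in the PI 567690 controls and 3, 11 and 10 under drought. Set against the 3 reads that a count of 0 over the 6 Pana libraries allows, its level per sequencing depth was at least 32.2-fold higher in PI 567690. This bound covers counting error in the line at 0 only. It takes the reads of the other line as counted, without their own counting error.

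Glyma13g03534 was the other gene of this kind among the widest separations (11.7-fold). It was at 0 in all 6 Pana libraries, at 3.24, 2.91 and 2.67 FPKM in the PI 567690 controls and at 5.99, 3.22 and 5.08 FPKM under drought. The reads behind it were 9 to 22 per PI 567690 library, 84 in all, and the bound was again at least 32.2-fold. Glyma20g03650 and Glyma08g13490 complete the 4 genes at 0 throughout Pana. Their bounds were lower, 9.96-fold and 22.2-fold, because Glyma20g03650 rested on 26 reads in PI 567690 and Glyma08g13490 on 58. The counting error of these few reads is not covered, so the true ratios may be lower still.

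Other wide separations lay between a trace in Pana and a moderate level in PI 567690. Glyma11g21756 was at 0.492, 0.759 and 0.295 FPKM in the Pana controls and 0.284, 0.64 and 1.24 FPKM in the Pana drought libraries. In PI 567690 it was at 16.3, 17.5 and 15.5 FPKM under control conditions and at 11.8, 41.6 and 41.9 FPKM under drought. It was thus the most abundant of the PI 567690-high genes, with its lowest PI 567690 value 8.09-fold above its highest Pana value.

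Glyma01g41542 rested on more reads and was separated 8.05-fold. Its Pana controls held 0.0417, 0.193 and 0.475 FPKM and its Pana drought libraries 0.337, 0.461 and 0.4 FPKM. Its PI 567690 controls held 7.91, 7.23 and 5.59 FPKM and its PI 567690 drought libraries 8.94, 10.1 and 10.4 FPKM. That is 76 reads over the 6 Pana libraries and 1610 over the 6 PI 567690 libraries, so the low line was measured above 0 in every library.

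Glyma15g34566 was nearly constant within PI 567690, at 6.33, 6.17 and 5.5 FPKM in the controls and 4.93, 5.46 and 5.72 FPKM under drought. Its Pana values were 0.139, 0.0179 and 0.0278 FPKM in the controls and 0.521, 0.0602 and 0.339 FPKM under drought. Glyma06g40075, another of the more abundant genes, ran from 9.98 to 11.8 FPKM over the 6 PI 567690 libraries and from 0 to 1.72 FPKM over the 6 Pana libraries. In both genes the spread within PI 567690 (SD of log2(FPKM + 0.25), 0.125 and 0.085, n = 6) was below the median of the 44 genes, 0.353.

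The 26 genes higher in Pana reached higher levels. Their means over the 6 Pana libraries ran from 1.35 to 1484 FPKM with a median of 7.82 FPKM, against 5.41 FPKM for the tested genes in Pana. The median SD of their log2(FPKM + 0.25) over the 6 Pana libraries was 0.623, against 0.707 for all tested genes in Pana. For the PI 567690-high genes in their line it was 0.353, against 0.407 for all tested genes, so the wider spread in Pana was not particular to the separating genes. In 17 of the 26 no PI 567690 library reached 1 FPKM, and 2 were at 0 in all 6. The separation was at least 4-fold in 10 and at least 8-fold in 4.

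Glyma18g20990 had the widest separation in this direction (18.5-fold). It stood at 33.2, 12.6 and 9.33 FPKM in the Pana controls and at 38.2, 8.44 and 11.2 FPKM in the Pana drought libraries. PI 567690 held 0.0953, 0.221 and 0.09 FPKM under control conditions and 0.113, 0.0814 and 0.14 FPKM under drought. Library 1 of each Pana group was the highest of its group, and the lines were still far apart.

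Glyma13g05130 was the most even of the wide separations (8.81-fold). Its Pana values were 19.3, 23.6 and 21.6 FPKM in the controls and 20.2, 23.8 and 23.1 FPKM under drought. In PI 567690 the controls held 0.473, 0.406 and 0.351 FPKM and the drought libraries 1.97, 0.882 and 0.669 FPKM, so all 3 drought values lay above all 3 control values at a low level. It rested on 410 to 969 reads per Pana library and 9 to 40 per PI 567690 library.

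Glyma18g51765 and Glyma14g03800 were separated 7.39-fold and 7.13-fold. Glyma18g51765 ran from 5.31 to 12.7 FPKM over the 6 Pana libraries and from 0.22 to 0.503 FPKM over the 6 PI 567690 libraries. Glyma14g03800 ran from 14.1 to 23.2 FPKM in Pana and from 0.727 to 1.76 FPKM in PI 567690. Neither was at 0 in any library of either line.

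Glyma16g31540 and Glyma09g16100 were the 2 genes at 0 in all 6 PI 567690 libraries. Glyma16g31540 ran from 0.666 to 6.58 FPKM in Pana, on 6 to 57 reads per library and 182 in all. Its level was at least 52.8-fold higher in Pana by the same bound, which here covers counting error in PI 567690 only. Glyma09g16100 stood at 7.2, 4.88 and 4.68 FPKM in the Pana controls and 2.63, 5.83 and 4.6 FPKM in the Pana drought libraries, a separation of 11.5-fold. Its reads could not be recovered, so no bound is given for it.

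The most abundant of the 70 genes were also higher in Pana. Glyma12g14420 stood at 289, 183 and 179 FPKM in the Pana controls and 254, 252 and 291 FPKM in the Pana drought libraries. In PI 567690 it stood at 18.9, 24.6 and 23.3 FPKM under control conditions and 29.0, 24.6 and 26.3 FPKM under drought. It was thus clearly expressed in both lines, with a 6.13-fold gap between the lowest Pana and the highest PI 567690 value. Glyma11g01160 ran from 13.9 to 87.7 FPKM in Pana and from 2.76 to 5.29 FPKM in PI 567690. Glyma09g15450, the most variable, ran from 198 to 5730 FPKM in Pana and from 1.6 to 36.8 FPKM in PI 567690.

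**Figure D2:**
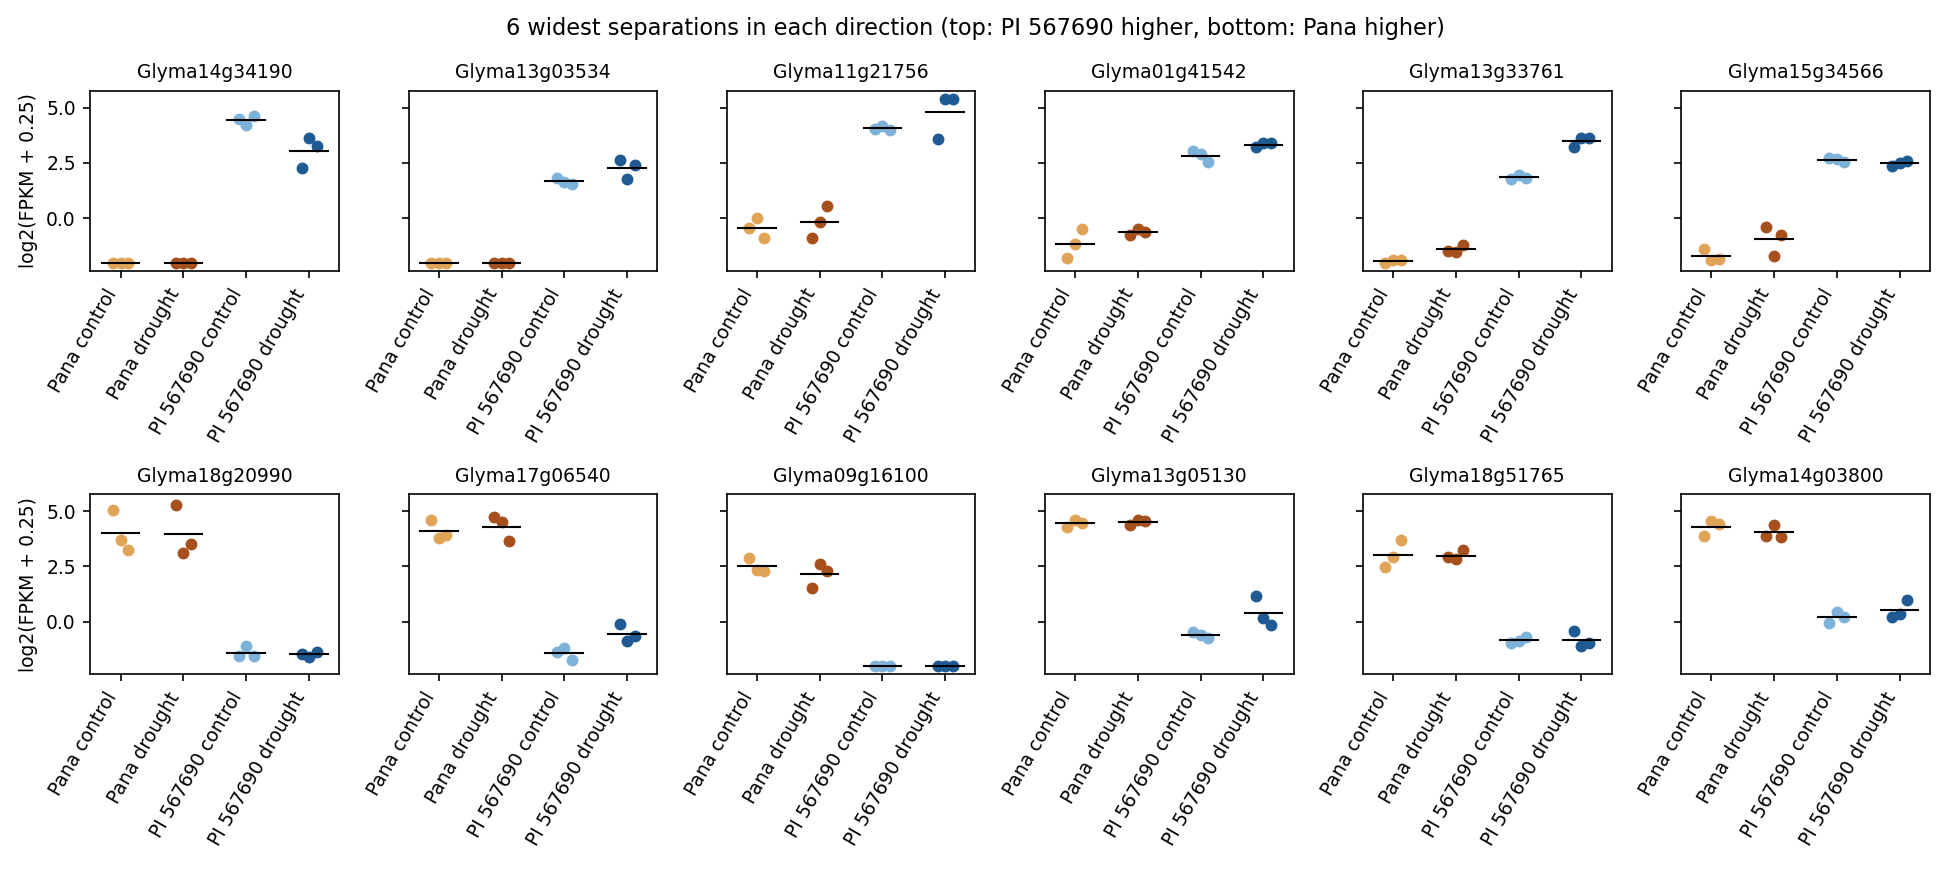
FPKM of the 6 genes with the widest separation in each direction, on the log2(FPKM + 0.25) scale, in the 3 libraries of each group (points) with the mean of the group (bars). No point of one line reaches the other line in any panel, and the points of Glyma14g34190 and Glyma13g03534 in Pana and of Glyma09g16100 in PI 567690 all lie at the floor, which is 0 FPKM.

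The threshold passes through a continuous range of separations. Just inside it in the PI 567690-high direction were Glyma15g42030 (2.06-fold) and Glyma03g07390 (2.04-fold), and just outside were Glyma03g10002 and Glyma05g31060, at 1.999-fold and 1.998-fold. In the Pana-high direction Glyma08g02835 (2.19-fold) and Glyma07g14410 (2.11-fold) were inside, and Glyma19g04140 (1.95-fold) and Glyma18g17190 (1.87-fold) outside. A scaling that sets the median ratio of all libraries equal took Glyma03g07390 and Glyma15g42030 below the threshold, to log2 separations of 0.58 and 0.90.

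The 2 treatments gave very different numbers when taken apart. The same rule on the 6 control libraries chose 2911 genes higher in PI 567690 and 725 higher in Pana. On the 6 drought libraries it chose 191 and 105. Of these, 60 and 32 were chosen in the same direction in both treatments, and the 70 genes are those whose values also stay apart when the treatments are compared with each other. In 4 genes PI 567690 was higher under control conditions and Pana under drought, and in 4 others the reverse held. All these counts are on unscaled values, and the libraries differed in typical level. The factors that set median ratios equal were 0.679, 0.807 and 0.974 in the Pana controls and 0.985, 0.979 and 0.949 in the PI 567690 controls. Under drought they were 1.16, 1.17 and 0.941 in Pana and 1.29, 1.11 and 1.12 in PI 567690. How far this shifts the counts by direction was not tested.

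A library that the rule did not use gives a look at the separation outside the choice. For the genes chosen from the other 11 libraries, the position of the library left out was read on a scale from 0, the mean level of its own line, to 1, that of the other line, on log2(FPKM + 0.25). In 7 of the 12 libraries at most 2 genes lay above 0.75, the level taken as that of the other line. These 7 are Pana control libraries 2 and 3, Pana drought library 2, PI 567690 control libraries 2 and 3 and PI 567690 drought libraries 2 and 3. The last 2 were nearly 1 sample, so leaving out either kept its near-copy in the choice, and their low counts say little. Pana control library 1 had 4 genes above 0.75 of 82 and PI 567690 control library 1 had 3 of 78. More genes lay between the lines, from 0.25 to 0.75. They were 14 of 75 in Pana drought library 2, 12 of 75 in Pana control library 3 and 12 of 76 in PI 567690 control library 3. Pana control library 2 had 5 of 73 and PI 567690 control library 2 had 5 of 71. In library 1 of the controls they were 13 of 82 in Pana and 9 of 78 in PI 567690.

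Pana drought library 1 went against its label in the most genes. Of 134 genes chosen without it, 60 lay below 0.25 in it, 26 lay between the lines and 48 lay above 0.75. Both directions took part, with 30 of 85 genes higher in PI 567690 and 18 of 49 higher in Pana at the level of PI 567690. In Pana drought library 3 it was 24 of 103 genes, and in PI 567690 drought library 1 it was 12 of 99 at the level of Pana.

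Some genes chosen without Pana drought library 1 fell short of the range of PI 567690 in that library or went past it. The single genes given here lay within that range. Glyma14g17821 was at 0 in 5 Pana libraries and at 3.69 FPKM in Pana drought library 1, within the 2.78 to 5.4 FPKM of PI 567690. Glyma20g03380 was at 0 in the same 5 libraries and at 3.72 FPKM in Pana drought library 1, against 2.41 to 3.74 FPKM in PI 567690. In the other direction, Glyma13g29630 stood at 16.2 to 22.8 FPKM in 5 Pana libraries and at 0.29 FPKM in Pana drought library 1, within the 0.207 to 0.93 FPKM of PI 567690. These genes were picked after their values were seen, and the cause was not tested.

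In Pana drought library 3, 7 of the 24 genes at the level of PI 567690 carried identifiers of chromosome 17. All 7 were Pana-high genes, and they lay between Glyma17g19570 and Glyma17g32731 in the order of the identifiers. Glyma17g30000 stood at 11.9, 3.9 and 3.66 FPKM in the Pana controls and at 2.89 and 6.05 FPKM in Pana drought libraries 1 and 2, and at 0 in Pana drought library 3 and all 6 PI 567690 libraries. Glyma17g20570 stood at 3.07 to 5.04 FPKM in 5 Pana libraries, at 0 in Pana drought library 3 and at 0 to 0.0988 FPKM in PI 567690. The genes at the level of PI 567690 in Pana drought library 1 spread over 18 of the 20 chromosomes. Order was read over all genes chosen without that library, leaving out those between the lines. The next gene along the chromosome after one at the level of PI 567690 was also at that level in 17 of 39 cases. After a gene at the level of Pana it was at the level of PI 567690 in 24 of 49 cases. The same counts for Pana drought library 3 were 9 of 17 and 10 of 45.

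**Figure D3:**
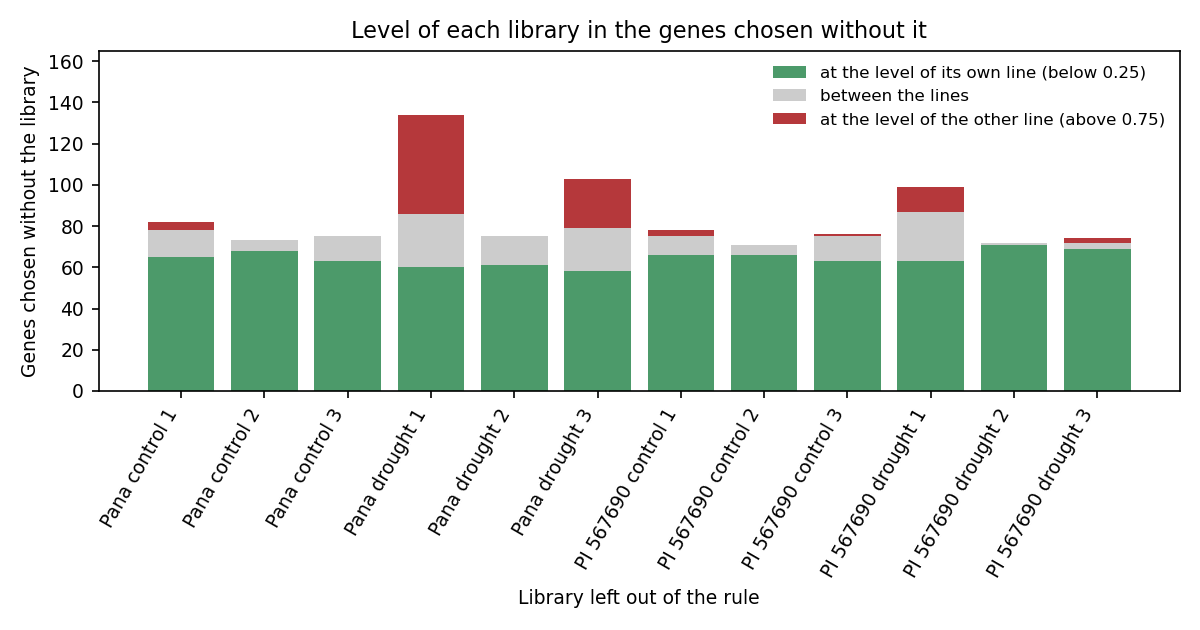
For each of the 12 libraries, the number of genes that separated the lines in the other 11 libraries, divided by the level of the library left out on a scale from its own line (0) to the other line (1). Pana drought library 1 has 48 genes above 0.75, Pana drought library 3 has 24 and PI 567690 drought library 1 has 12, while each of the other libraries has 4 or fewer.

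The identifiers give the chromosome of a gene model and a number that rises along it, which gives the order of the genes without coordinates. All 20 chromosomes held at least 1 of the 70 genes. Chromosome 3 held the most, 9 genes or 12.9% of the 70, against 4.57% of the tested genes, and 8 of the 9 were higher in PI 567690. Chromosome 15 held 6 and chromosomes 7, 14 and 18 held 5 each. On chromosomes 9 and 16 none of the genes was higher in PI 567690, with 3 and 2 higher in Pana. With each library left out in turn, the share on chromosome 3 ran from 8.74% of 103 genes (without Pana drought library 3) to 14.7% of 75 (without Pana drought library 2).

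**Figure D4:**
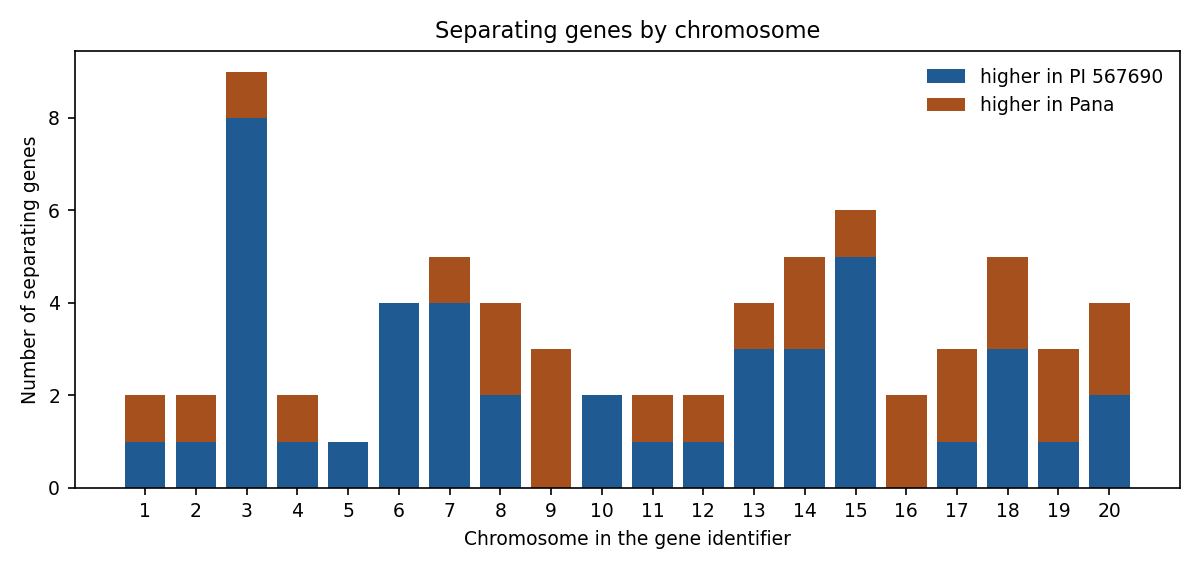
Number of separating genes by the chromosome in the identifier, with the genes higher in PI 567690 and in Pana stacked. Chromosome 3 has 9 genes, 8 of them higher in PI 567690, and every chromosome has at least 1.

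Separating genes sat next to each other in 5 places. Pairs with at most 10 gene models between them were Glyma03g02006 with Glyma03g02013, Glyma13g03534 with Glyma13g03547 and Glyma20g03650 with Glyma20g03670, all higher in PI 567690. Glyma09g16090 and Glyma09g16100 were both higher in Pana, and Glyma09g15450, also Pana-high, lay within the same 50 gene models. In the fifth pair the genes went opposite ways. Glyma17g06540 stood at 12.1 to 26.4 FPKM in Pana and 0.0566 to 0.678 FPKM in PI 567690, and Glyma17g06580, with 2 gene models between, stood at 0.156 to 0.564 FPKM in Pana and 2.36 to 5.32 FPKM in PI 567690.

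The first pair had no gene model between its members and similar values. Glyma03g02006 was at 15.1, 7.92 and 6.97 FPKM in the PI 567690 controls and 4.46, 9.16 and 8.41 FPKM under drought, and Glyma03g02013 at 10.3, 7.71 and 3.76 FPKM and at 4.76, 5.34 and 6.94 FPKM. Both were at or below 1.31 FPKM in every Pana library. Adjacent gene models may share reads or be parts of 1 transcript, which these values do not show.

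Of the 139 gene models directly beside a separating gene, 6 (4.32%) were themselves separating genes, against 0.129% of all gene models. Within 10 gene models to either side the share was 10 of 1313 (0.762%). Apart from the 70 genes, 4 of 72 tested direct neighbours (5.56%) and 24 of 763 within 10 (3.15%) had no overlap between the 12 values of the lines at any fold, against 1.81% of all tested genes. That last share includes the tested separating genes, which have no overlap by the rule. Of all tested genes 67.6% were higher in PI 567690 and 32.4% in Pana. This is on unscaled values, with a median log2 difference of 0.186 (PI 567690 minus Pana), and the shares below carry the same offset. Beside the PI 567690-high genes, 32 of 45 tested direct neighbours (71.1%) and 63.1% of those within 10 were higher in PI 567690. Beside the Pana-high genes, 15 of 27 tested direct neighbours (55.6%) and 36.5% of those within 10 were higher in Pana. These shares were not tested.

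The number in the identifier was not a multiple of 10 in 21 of the 44 PI 567690-high genes (47.7%) and in 5 of the 26 Pana-high genes (19.2%). The share was 23.7% of all gene models on chromosomes, 15.2% of the tested ones and 18.4% of the tested ones with a mean below 10 FPKM. Among tested genes without overlap at any fold it was 21.8% of the 481 higher in PI 567690 and 22.9% of the 109 higher in Pana. The difference between the directions was not tested. The files do not say how gene models with such numbers were made.

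The drought response of the separating genes was tested across all 32697 tested genes with limma on log2(FPKM + 1), with Benjamini-Hochberg adjustment at 0.05. Of the 70 genes, 66 were tested (40 higher in PI 567690 and 26 higher in Pana), and the other 4 were below the filter. The rule joins the treatments and used the same 12 libraries as these tests. A response that closed the gap between the lines would have kept a gene out. The choice thus favours drought effects that are small or that widen the gap. For that reason the shares and medians set beside those of all tested genes below are descriptions. The same fit called all 40 PI 567690-high genes between the lines under control conditions and 38 of 40 under drought, against 11.4% and 0.291% of all tested genes. It called 24 and 19 of the 26 Pana-high genes, against 3.13% and 0.0979%. The rule used these contrasts, so the counts add nothing to it.

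Under drought most separating genes did not pass the test in either line. In Pana 0 of the 66 rose and 2 fell (limma), while 1.5% of all tested genes rose and 0.658% fell. At an unadjusted p under 0.05, 3 were higher and 3 lower. The median absolute log2 fold change of the 66 was 0.18, against 0.49 over all tested genes. It was 0.12 for the PI 567690-high genes, on a scale that leaves little room where Pana is near 0, and 0.34 for the Pana-high genes. In PI 567690 8 rose and 2 fell, against 6.06% and 6.25% of all tested genes. The median absolute log2 fold change in PI 567690 was 0.26, against 0.46, with 0.37 for the PI 567690-high genes and 0.13 for the Pana-high genes. The last value has the same limit of scale, since 17 of the 26 Pana-high genes stayed below 1 FPKM throughout PI 567690. Signed medians over the tested genes were above 0 in both lines, 0.32 in Pana and 0.21 in PI 567690, and those of the 66 genes were 0.07 and 0.12. With all libraries scaled to 1 median ratio, 6 of the 66 rose and 3 fell in PI 567690, and 0 rose and 3 fell in Pana. With the near-identical PI 567690 drought libraries 2 and 3 averaged into 1, 4 rose and 1 fell in PI 567690.

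The 2 falls in Pana were in genes higher in that line. Glyma03g28476 stood at 44.9, 18.7 and 13.2 FPKM in the Pana controls and 3.01, 4.67 and 3.01 FPKM under drought, without overlap. It fell by 2.38 on the log2 scale (SE 0.36, limma adjusted p = 0.0104), and was at 0.657 to 0.931 FPKM in all 6 PI 567690 libraries. Glyma19g41090 stood at 63.0, 47.6 and 26.5 FPKM in the Pana controls but 14.1, 6.73 and 4.33 FPKM in the Pana drought libraries, and fell by 2.37 on the log2 scale (SE 0.41, limma adjusted p = 0.0196). Both calls were lost with the 6 Pana libraries fitted alone (limma adjusted p = 0.284 for each). That of Glyma03g28476 was also lost without Pana drought libraries 1 and 3 (adjusted p = 0.0711). That of Glyma19g41090 was lost when Pana control library 1, Pana control library 2 or Pana drought library 2 was left out (adjusted p = 0.0502, 0.0704 and 0.0578).

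In PI 567690 the largest rise was that of Glyma08g19390, whose controls held 2.58, 2.33 and 3.31 FPKM and whose drought libraries held 28.7, 16.5 and 16.1 FPKM. Its log2 fold change was 2.48 (SE 0.28, limma adjusted p = 0.000639). Pana stayed between 0 and 0.62 FPKM. All PI 567690 drought values lay above all control values, on 370 to 460 reads against 43 to 77. Glyma20g03650 rose from 1.46, 2.21 and 1.2 FPKM to 4.56, 9.78 and 8.43 FPKM, by 1.67 on the log2 scale (SE 0.25, limma adjusted p = 0.00223), but on 1, 3 and 1 reads in the controls and 3, 9 and 9 under drought. At that depth the size of its change is poorly known.

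The 2 falls in PI 567690 were those of Glyma14g34190 and Glyma15g35210. Glyma14g34190, whose values are given above, fell by 1.30 on the log2 scale (SE 0.28, limma adjusted p = 0.0125). Its call was lost without PI 567690 control library 3 (adjusted p = 0.0622) and where means had to reach 5 FPKM (adjusted p = 0.0602). Glyma15g35210 went from 10.3, 9.07 and 12.2 FPKM to 4.43, 5.92 and 6.16 FPKM, by -0.82 on the log2 scale (SE 0.24, limma adjusted p = 0.0465), and its call held in 11 of the 21 settings run for it. The separations by which these genes were chosen, 19.2-fold and 6.30-fold on FPKM + 0.25, already include the drought libraries.

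The difference of the drought effects (PI 567690 minus Pana) passed in 5 separating genes, all positive, and in 0 with a negative sign (limma; 10 and 4 at an unadjusted p under 0.05). Of the tested genes 1.36% had a positive and 4.24% a negative call. In Glyma08g19390 (log2 difference 2.38, SE 0.39, limma adjusted p = 0.00708), Glyma20g03650 (1.67, SE 0.35, 0.019) and Glyma13g33761 (1.30, SE 0.25, 0.0141) the gap between the lines was wider under drought. All of these were at or near 0 in Pana, where log2(FPKM + 1) leaves little room for a drought effect. Their difference therefore mainly restates the rise in PI 567690, which for Glyma20g03650 started from 1, 3 and 1 reads. The call of Glyma08g19390 was lost on log2(FPKM + 0.25) (adjusted p = 0.0663) and where means had to reach 5 FPKM (adjusted p = 0.0782). Glyma13g33761 went from 3.22, 3.65 and 3.25 FPKM to 9.0, 12.2 and 12.1 FPKM in PI 567690 and stayed between 0 and 0.19 FPKM in Pana. In Glyma03g28476 (2.48, SE 0.50, 0.0172) and Glyma20g00990 (1.47, SE 0.36, 0.0355) the gap was narrower under drought. The call of Glyma03g28476 was lost without PI 567690 control library 3 (adjusted p = 0.0536), where means had to reach 5 FPKM (0.0568) and without Pana drought libraries 1 and 3 (0.122). Glyma20g00990 stood at 10.2, 8.7 and 11.3 FPKM in the Pana controls and 3.91, 7.33 and 3.96 FPKM under drought, and at 0.425, 0.107 and 0.0438 FPKM and 0.996, 0.475 and 0.819 FPKM in PI 567690. The 5 genes were all those called. Their number was 3 on log2(FPKM + 0.25), 0 where means had to reach 5 FPKM, 3 with PI 567690 drought libraries 2 and 3 averaged, 2 without Pana drought libraries 1 and 3, 1 without PI 567690 control library 3 and 3 without PI 567690 drought library 2 or 3.

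Of the other calls in PI 567690, Glyma19g42020 was the only Pana-high gene to rise. It went from 2.88, 3.89 and 3.16 FPKM to 15.2, 8.53 and 8.66 FPKM, by 1.41 on the log2 scale (SE 0.30, limma adjusted p = 0.0122), against 41.6, 50.5 and 45.3 FPKM and 64.9, 80.9 and 38.1 FPKM in Pana. The 4 further rises, of Glyma18g41730, Glyma13g03547, Glyma07g02190 and Glyma14g39451, had log2 fold changes of 0.61 to 1.65. The 8 rises in all became 5 without PI 567690 control library 1 or 2 or drought library 1 or 2, 4 without drought library 3 and 3 without control library 3. The 2 falls became 1 without PI 567690 control library 1 or 2, Pana control library 3 or any PI 567690 drought library, and 0 without PI 567690 control library 3.

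**Figure D5:**
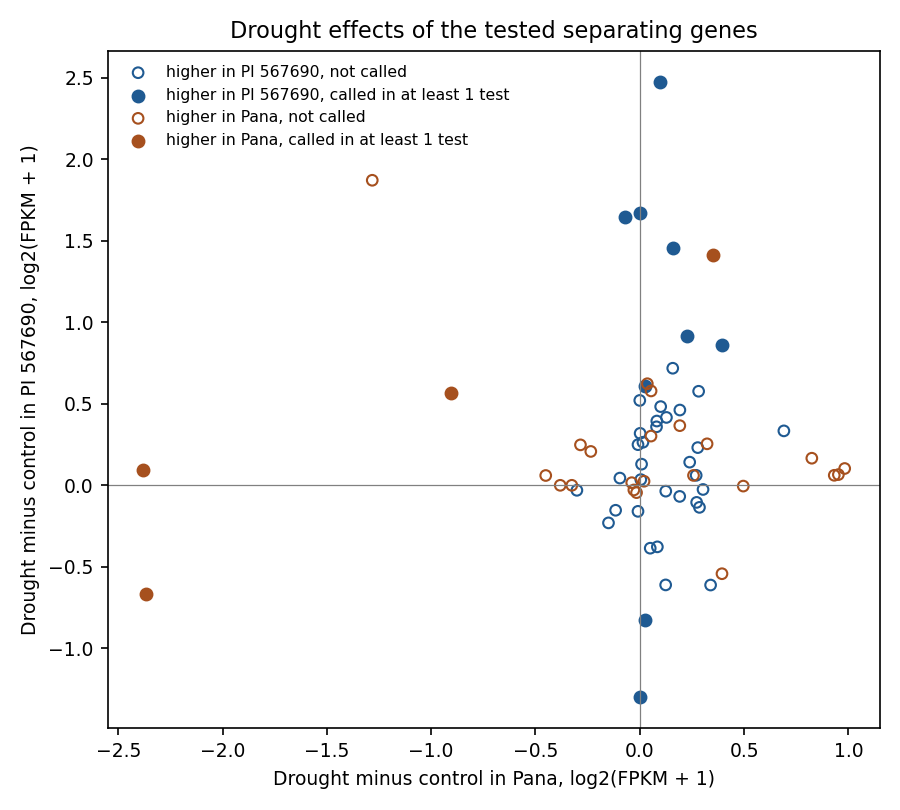
Drought effect in Pana (horizontal) and in PI 567690 (vertical) of the 66 tested separating genes, as the difference of means on log2(FPKM + 1); filled points passed at least 1 of the 3 tests. Glyma08g19390 is the highest point, at 2.48 in PI 567690, and Glyma03g28476 and Glyma19g41090 are the leftmost, at -2.38 and -2.37 in Pana.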

How the data were processed

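Leaf RNA-seq of 4 groups was deposited as 1 table of 54175 gene models in 12 libraries, and each column was placed in a group by its name. The deposited values were taken as FPKM computed by the authors, although the table states no unit: they are not whole, and their low values move in steps that depend on the gene. FastQC, TopHat 1.4.1, Cufflinks and Cuffdiff appear, without roles, in the submitters' processing notes. For the genome build and gene annotation, the sources used here give none.

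The rule used FPKM + 0.25 and a 2-fold gap. The members, lists and tests were chosen with earlier results of these data known. Named genes were the 6 widest separations, the 4 highest means and the 2 genes on each side of the threshold per direction, the closest neighbouring members, and the 2 largest called rises and falls per drought comparison; any others were picked after their values were seen. Family lists could not be applied to unnamed identifiers. Tests used limma 3.58.1 in R 4.3.3 on log2(FPKM + 1), with a trend, 1 coefficient per group over all 12 libraries, on genes that reached 1 FPKM in 3 or more libraries. Fold changes on that scale understate changes of low genes.

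Whole reads were recovered where the values were multiples of 1 step within 0.06 reads up to 60 reads, and within 0.05% where that is wider. This held for 35.0% of 41770 gene models above 0 in at least 8 libraries, mostly low ones, and for 50 of the 70 genes. Their sums, 271045 to 907509 reads per library, cover only these gene models and are not the depth of the libraries, which is known here only relative to the deepest. Of these 50 genes, 10 had under 10 reads in a library of the higher line. The computations were tested on simulated data (Python 3.11.15, numpy 2.4.6, pandas 2.3.3, matplotlib 3.10.9).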

Additional observations from a re-analysis of the deposited data

Results flagged for a closer look

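In 5 separating genes the drought effects of the lines differed by the test of the difference itself (limma, adjusted p under 0.05, PI 567690 minus Pana, log2 scale, 3 libraries a group). The difference was 2.48 for Glyma03g28476, 2.38 for Glyma08g19390 and 1.67 for Glyma20g03650. It was 1.47 for Glyma20g00990 and 1.30 for Glyma13g33761. Glyma08g19390, Glyma20g03650 and Glyma13g33761 were at or near 0 in Pana, so their difference mainly restates the rise in PI 567690. In PI 567690 itself Glyma03g28476 and Glyma20g00990 did not pass the drought test, and in Pana only Glyma03g28476 of the 5 did.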

How the results depend on the processing

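The number of separating genes (44 higher in PI 567690, 26 in Pana) followed the threshold: 79 and 41 at 1.5-fold, 30 and 14 at 3-fold, 17 and 10 at 4-fold, and 27 and 17 with 1 FPKM added. On unscaled values, control libraries alone gave 2911 and 725, and drought libraries alone 191 and 105. Leaving out 1 library gave 45 to 85 and 26 to 49. The other removals were chosen after seeing the data: without Pana drought libraries 1 and 3 there were 148 and 115, and without PI 567690 drought library 1 as well 294 and 160. Adding 0.1 FPKM, equal median ratios, filters on low values and averaging PI 567690 drought libraries 2 and 3 kept both counts within 1.5 times. At 4-fold 4 members had another close by, in place of 10. Of the 66 tested members, those called in PI 567690 (8 higher, 2 lower) and for the difference (5 positive) became 5, 1 and 3 with log2(FPKM + 0.25), 2, 0 and 0 where means had to reach 5 FPKM, and 4, 1 and 3 with those 2 libraries averaged. Each line alone gave 0 lower in Pana, and 12 higher and 4 lower in PI 567690. Without Pana drought libraries 1 and 3, 1 was higher and 1 lower in Pana, and 2 positive and 1 negative for the difference. Leaving out 1 library gave 0 to 3 higher and 1 to 2 lower in Pana, 3 to 9 and 0 to 3 in PI 567690, and 1 to 5 positive and 0 to 1 negative for the difference. The cause of these changes was not tested. Same-numbered libraries of a line did not deviate together (r of -0.05 to 0.14). These correlations show no pairing by number, but with 3 libraries a group they cannot exclude it. With the number as a replicate block 0 and 2 members were called in Pana, 8 and 2 in PI 567690 and 4 for the difference. Depth limits the genes at 0: the reads behind the widest separation numbered 84.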
